A study of Homo sapiens with 16 samples.

Results

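Pol II binding after 1 h of merbarone was set against that after 30 min in hTERT RPE-1, a wild-type human line from the retinal pigment epithelium that telomerase keeps growing. The members are all stretches of hg19 called as bound at either time. Peaks lying 37 bp or less from each other were fused within each list, and peaks narrower than the narrowest 1 h peak were then removed, which gave 68011 peaks at 30 min and 81816 at 1 h. Overlapping peaks of these lists formed 89225 separate regions. Merging all 4 peak lists of the study gave 92393 regions, of which 85537 (92.6%) held a peak of either time. All cells of the comparison had spent 48 h in 0.1% serum and received 200 uM merbarone, for 30 min in 3 libraries and for 1 h in 2. Libraries were made by ChIPmentation, in which a transposase adds adapters to chromatin on the antibody beads, with an antibody to the N-terminal part of RPB1, the largest Pol II subunit. The control list came from 3 Pol II libraries given the DMSO vehicle for 30 min and 3 untreated ones, so there is no vehicle of 1 h. The TOP2A list came from 2 untreated libraries. Cells of both lists had also spent 48 h in 0.1% serum, and neither list took part in the main calls.

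Pol II starts at promoters, commonly pauses a short way downstream, and then moves through the gene once released. ChIP of RPB1 therefore gives sharp peaks at promoters and lower, broader signal along genes that are being read. A moving polymerase overwinds the DNA ahead of it and underwinds the DNA behind it, and topoisomerases remove this strain. TOP2A passes one DNA duplex through another to do so, and merbarone blocks its catalytic cycle before DNA is cut.

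All libraries of a time share 1 list, so the spread between replicates cannot be given and no test between the times could be made. The labels do not say whether libraries came from separate cultures. The lists give positions only: read depth is unknown, and a list called from more reads cannot be told apart from a list of more bound DNA. Whether peaks were called with the same settings at both times is also unknown. Intervals in parentheses are 95% Wilson intervals, which cover the counting of peaks or domains only. No annotation of hg19 was used here, so places are given by position, counted from 1, and no gene is assigned to them.

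Most DNA under Pol II at 30 min was still under Pol II at 1 h, and more DNA was added than left. The lists had 39.7 Mb in common, which was 85.2% of the cover at 30 min and 68.1% of the cover at 1 h. Only 6.89 Mb was covered at 30 min alone, against 18.6 Mb at 1 h alone, so total cover was 46.6 Mb and 58.3 Mb, a ratio of 1.25. Mean peak width was 685 bp at 30 min and 713 bp at 1 h. The share of all covered bases that was common to both lists, the Jaccard index, was 0.609. It was 0.627 for control with 30 min and 0.554 for control with 1 h under the same limits; these 3 values share lists, so they are not independent.

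The cover found at 1 h alone was of 3 kinds. Peaks that touched no 30 min peak held 9.53 Mb of it (51.3%). Outward edges of peaks present at both times held 6.95 Mb (37.4%). Stretches between 30 min peaks that a single 1 h peak ran across held 2.11 Mb (11.3%). The cover found at 30 min alone split in nearly the same way, with 3.35 Mb (48.6%) in peaks that touched no 1 h peak, 2.80 Mb (40.7%) at edges and 0.738 Mb (10.7%) between 1 h peaks. Added edges summed to 3.48 Mb towards lower and 3.47 Mb towards higher coordinates. No strand was assigned, so genes of either strand are mixed and these sums cannot show a direction along genes.

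**Figure D1:**
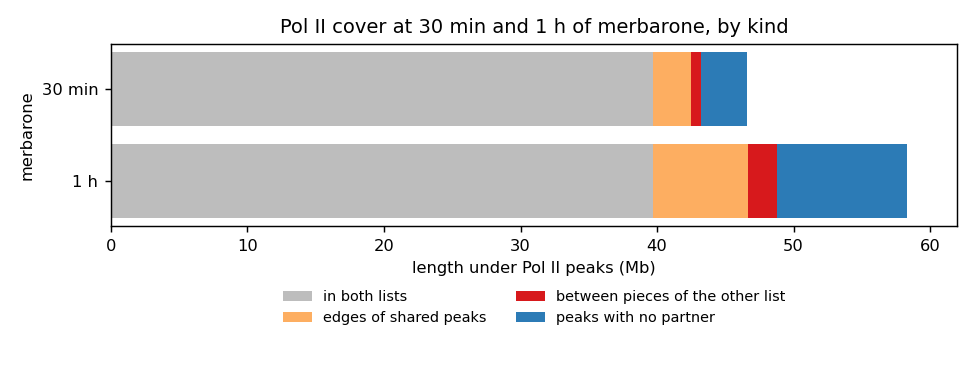
Length under Pol II peaks in Mb at 30 min and 1 h of merbarone, split into bases in both lists and the 3 kinds of base found in 1 list. The grey part is 39.7 Mb in each bar, and each coloured part is longer at 1 h than at 30 min.

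Of the 30 min peaks, 13849 (20.4%, 20.1 to 20.7) overlapped no 1 h peak by even 1 bp. Of the 1 h peaks, 33606 (41.1%, 40.7 to 41.4) overlapped no 30 min peak. Peaks found at 1 time only were narrow, with a median of 204 bp at 30 min and 228 bp at 1 h, against 442 and 588 bp for peaks with a partner. In every width class under 2000 bp the share without a partner was higher at 1 h. Among peaks under 200 bp it was 45.3% (44.4 to 46.1) at 30 min and 73.4% (72.8 to 74.1) at 1 h, and among those from 500 to under 1000 bp it was 3.36% (3.06 to 3.70) and 16.5% (15.9 to 17.1). None of 3986 peaks of 2000 bp or more at 30 min lacked a 1 h partner, against 20 of 5228 at 1 h. The narrowest class was not alike in the lists, since 4.55% of 1 h peaks and 0.75% of 30 min peaks stood at exactly the smallest width.

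**Figure D2:**
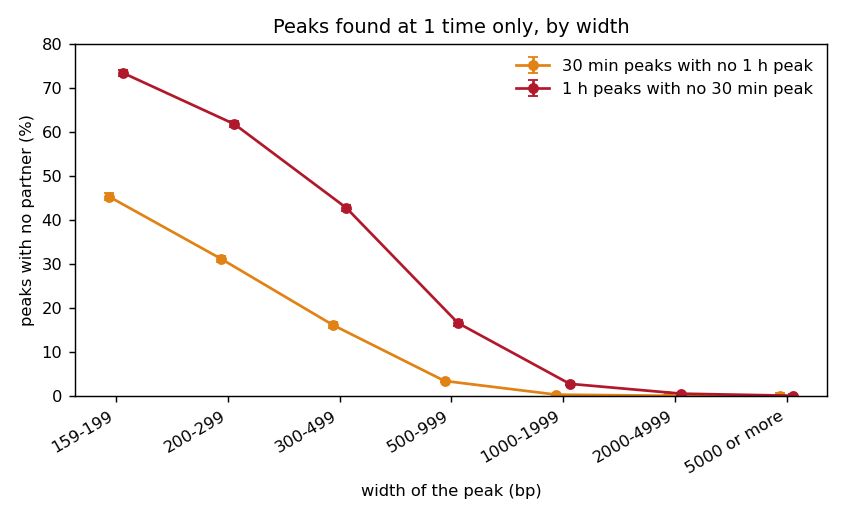
Percentage of peaks with no partner at the other time, by width of the peak in bp; points are shares and bars are 95% Wilson intervals. Both curves go down with width, and the 1 h points lie above the 30 min points in every class under 5000 bp.

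Peaks present at 1 time only mostly lay within 5 kb of Pol II of the other time. The median distance was 595 bp for those at 30 min alone and 1145 bp for those at 1 h alone. The 1 h list covers more DNA, and no share for other positions was set beside these values. Of those at 30 min alone, 61.1% (60.3 to 61.9) had a 1 h peak within 1 kb and 85.0% (84.4 to 85.6) within 5 kb. Of those at 1 h alone, 47.2% (46.7 to 47.7) had a 30 min peak within 1 kb and 76.5% (76.1 to 77.0) within 5 kb. At greater range, 4754 of those at 1 h alone (14.1%) lay over 10 kb from any 30 min peak, against 1295 (9.35%) in the other direction. Beyond 50 kb there were 677 at 1 h alone and 393 at 30 min alone. As shares the order was reversed there, at 2.01% and 2.84%.

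The widest peaks seen at 1 h alone lay several kb from 30 min Pol II. A peak of 4889 bp at chr1:9374256-9379144 lay 7444 bp from the nearest 30 min peak. The next, 4414 bp at chr1:12660958-12665371, lay 3918 bp away, and 3849 bp at chr1:2201401-2205249 lay 11310 bp away. The peak of 3592 bp at chr17:72857641-72861232 stood 7429 bp off, and that of 3393 bp at chr3:170100607-170103999 stood 11185 bp off. With the lists as deposited that last distance was 4073 bp, and with peaks of at least 300 bp that of the chr1:2201401-2205249 peak was 26295 bp. The control list had no peak in 3 of these 5 places and covered 11.0% of the chr1:12660958-12665371 peak and 6.1% of the chr1:2201401-2205249 peak.

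The widest peaks seen at 30 min alone were shorter and, in 4 of 5 cases, had 1 h Pol II within 1 kb. The widest spanned 1652 bp at chr11:69190194-69191845, with the nearest 1 h peak 1470 bp away. Others were 1592 bp at chr10:33528959-33530550 (261 bp from a 1 h peak) and 1452 bp at chr10:14126492-14127943 (867 bp). The peak of 1426 bp at chr8:144670097-144671522 stood 111 bp from a 1 h peak, and that of 1421 bp at chr2:9512847-9514267 stood 176 bp from one. Of these distances, 3 depend on narrow 1 h peaks: with peaks of at least 300 bp they were 1470, 947, 8223, 5450 and 176 bp in the same order, and 2 of 5 were within 1 kb. Control peaks overlapped all 5, over 18.6% to 48.4% of their width.

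Each region was then put in 1 of 5 classes by its covered length. A region with a peak at both times was called extended where cover at 1 h exceeded that at 30 min by at least 25%, shrunk where cover at 30 min exceeded that at 1 h by as much, and kept otherwise. Kept regions numbered 22186 (24.9% of all regions) and had a median width of 1038 bp, more than any other class. They held 31.7 Mb of cover at 30 min and 32.9 Mb at 1 h. Extended regions numbered 14129, or 33.8% of the 41802 regions with peaks at both times, and went from 7.99 to 13.7 Mb. Shrunk regions numbered 5487 (13.1%) and went from 3.55 to 2.17 Mb. A further 33586 regions had a peak at 1 h alone and 13837 at 30 min alone.

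From 300 bp up, wider regions were kept more often. The kept share was 35.8% from 300 to under 500 bp, 64.0% from 1 to under 2 kb and 74.3% from 2 to under 5 kb. Among regions of 5 kb or more with peaks at both times, 1006 of 1164 were kept, 152 extended and 6 shrunk. Among those from 500 to under 1000 bp, 5235 of 12516 were kept, 5237 extended and 2044 shrunk. Narrower regions did not follow this order. Those under 200 bp were kept in 349 of 349 cases, where the smallest peak width leaves almost no room for a 25% difference, and those from 200 to under 300 bp in 56.7%.

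Single peaks matched 1 to 1 in 30742 regions, and in these edges shifted both ways. At 1 h, 24.4% of lower and 24.2% of upper edges stood within 25 bp of their 30 min position. Both edges did so in 2068 regions (6.73%). In the medians that follow, inward shifts offset outward ones. The lower edge stood further out at 1 h by a median of 22 bp and the upper edge by 21 bp. The middle 50% of shifts ran from 31 bp inward to 105 bp outward for the lower edge, and from 32 bp inward to 104 bp outward for the upper edge. Both edges stood further out in 10873 regions and further in in 4910, while in 14587 one stood further out and the other further in. An outward step of at least 250 bp was found at 2584 lower and 2609 upper edges, and an inward step of that size at 752 and 769. In 1710 regions a step outward of at least 250 bp on one side came with a shift under 50 bp on the other. Median width was 419 bp at 30 min and 524 bp at 1 h, with 19962 regions wider at 1 h and 10666 narrower.

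Peaks that were separate at 30 min often formed 1 peak at 1 h. A total of 8499 peaks at 1 h (10.4%, 10.2 to 10.6) overlapped 2 or more peaks at 30 min, and together they overlapped 20853. The reverse was seen for 5436 peaks at 30 min (7.99%, 7.79 to 8.20), which overlapped 11838 peaks at 1 h. Large joins were seen mostly in the later list: 37 peaks at 1 h ran across at least 10 peaks at 30 min, and no 30 min peak ran across more than 9 at 1 h. The gaps run across at 1 h had a median of 118 bp, and 541 were of 500 bp or more, up to 2849 bp. Those run across at 30 min had a median of 83 bp, with 65 of 500 bp or more.

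The 1 h peak over the most 30 min pieces spanned 27873 bp at chr8:124507842-124535714, across 27 pieces of at most 2443 bp that covered 67.2% of it. A peak of 18659 bp at chr4:57923125-57941783 ran across 26 pieces of at most 1372 bp, which covered 66.5%. At chr22:36756749-36775330 and chr6:43737393-43752409, peaks of 18582 and 15017 bp ran across 17 pieces each, with 84.1% and 78.6% covered at 30 min. The peak of 21939 bp at chr12:66216286-66238224 ran across 16 pieces and held 4 TOP2A peaks of untreated cells. In the other direction, the 30 min peak of 8018 bp at chr4:10075143-10083160 lay over 9 pieces at 1 h, which still covered 82.9% of it. That of 9060 bp at chr12:57576585-57585644 lay over 8 pieces that covered 94.2%, so splitting at 1 h left most of the stretch under Pol II.

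The longest solid tracts at 30 min stayed almost fully covered at 1 h, when such tracts were more numerous. Peaks of at least 10 kb numbered 73 at 30 min and 176 at 1 h. Of the 73, 60 overlapped a 1 h peak of at least 10 kb. Of the 176, 58 overlapped a 30 min peak of that size. The 73 were covered at 1 h over a median of 99.9% of their length and no less than 91.4%. Of the 176, 126 had been covered at 30 min over at least 90% of their length and 2 over less than 50%, and 154 had been in 2 or more pieces. At chr1:43388183-43414582 a 30 min peak of 26400 bp lay inside a 1 h peak of 39899 bp, 95.3% of which had been covered at 30 min in 7 pieces. At chr7:130578099-130602425 a 30 min peak of 24327 bp was covered in full at 1 h. At chr5:176902333-176925191 one of 22859 bp was covered over 99.4%.

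To describe longer stretches, the lists were pooled and peaks no more than 5 kb apart were grouped, which gave 21340 domains, and the share of each domain under peaks was compared between the times. Domains were compared where they spanned 5 kb or more and held peaks at both times, which left 5292. Cover was higher at 1 h by 10 percentage points or more in 2164 (40.9%). It was lower by that much in 328 (6.2%), and 2800 lay in between. The median domain was covered over 32.3% at 30 min and 41.7% at 1 h, and the median of the single differences was 7.62 points. A difference of at least 40 points was found in 91 domains towards 1 h and in 2 towards 30 min. Domains at least 90% covered numbered 65 at 30 min and 171 at 1 h, of which 57 were shared.

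**Figure D3:**
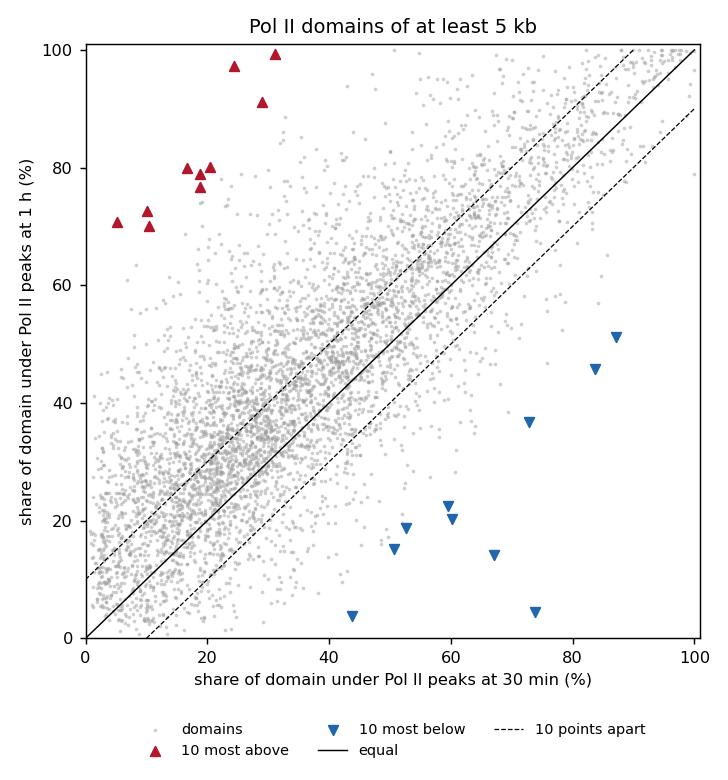
Share of each domain of at least 5 kb under Pol II peaks at 30 min and at 1 h, in percent; each point is 1 of 5292 domains, and coloured triangles are the 10 largest differences in either direction. The upward triangles lie at 70.1% to 99.3% at 1 h, and the downward triangles at 43.8% to 87.2% at 30 min.

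Domains are joined from both lists, so peaks added at 1 h can also lengthen a domain. When domains were built from the control list, which neither time shaped, 1206 of 3497 (34.5%) were covered more at 1 h and 251 (7.18%) less. When they were built from the 30 min list alone, 1151 (27.6%) were covered more and 445 (10.7%) less, and from the 1 h list alone 2369 (49.2%) and 158 (3.28%).

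The 10 largest differences towards 1 h were of 2 sizes, 5 domains under 10 kb and 5 of 30.0 to 89.1 kb. They were chosen for this difference, so their values are a description. Chr1:203274099-203280837 had 1 peak of 1647 bp at 30 min, over 24.4% of the domain, and 97.2% cover at 1 h. Chr10:120056558-120064054 was covered over 10.4% at 30 min and 70.1% at 1 h, and chr15:76232089-76237219 over 20.5% and 80.1%. At chr11:61109327-61118606 the shares were 18.8% and 76.7%. In all of these the control share was also low, at 11.4% to 28.2%.

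In the 5 long domains of that set the middle part was nearly empty at 30 min, with at most 10.7% cover, and 63.7% to 91.5% covered at 1 h. Chr15:68694892-68724865, 30.0 kb long, had 3 peaks over 5.2% of its length at 30 min and 28 peaks over 70.8% at 1 h. Cut into 5 equal parts, it was covered at 30 min over 0% in each of the 3 lower parts, 3.04% in the next and 23.0% in the last. At 1 h the shares from the lower end were 59.4%, 58.1%, 63.7%, 79.8% and 92.8%. At chr1:2157555-2246616, 89.1 kb long, the 5 parts at 30 min were covered over 52.0%, 2.14%, 0%, 1.94% and 37.8%, and at 1 h over 96.6%, 80.8%, 73.1%, 68.8% and 75.2%. In chr3:170073856-170126643 cover was 8.84 kb at 30 min and 42.2 kb at 1 h.

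Cover at 1 h tapered from the lower end in 2 of the domains with the most added bases. In chr11:19732893-19849080, 116 kb long, the 5 parts were covered over 64.9%, 17.2%, 8.22%, 2.71% and 7.35% at 30 min. At 1 h they were covered over 97.6%, 84.9%, 71.6%, 40.4% and 26.6%. In chr16:55512728-55627618 the 5 parts went from 96.7%, 54.2%, 13.0%, 8.29% and 24.7% at 30 min to 100%, 96.5%, 79.8%, 69.3% and 60.7%. Chr3:124477361-124607832 had its largest additions in the upper parts: its parts were covered over 41.2%, 23.8%, 21.2%, 7.85% and 24.5% at 30 min and 42.6%, 29.4%, 60.2%, 70.0% and 78.8% at 1 h. The next such domain, chr3:124680507-124776601, began 72.7 kb further on and went from 23.5 to 60.4 kb of cover. The most bases were added in a 388 kb domain at chr1:39569162-39957456, from 102 to 162 kb, where the share went from 26.3% to 41.8%.

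Domains covered less at 1 h were mostly short among the 10 largest differences, with 9 under 10 kb. At chr11:69188824-69197426, 11 peaks at 30 min covered 6.36 kb, and a single peak of 387 bp was left at 1 h. The 5 parts of this domain had 60.6%, 87.6%, 100%, 63.3% and 57.9% cover at 30 min, and at 1 h only the middle part had any, at 22.5%. Chr9:132996702-133002623 had 6 peaks over 67.1% at 30 min and 3 over 14.2% at 1 h. Chr1:203710005-203715675 went from 43.8% to 3.84%, although it lies 429 kb from the domain with the largest difference towards 1 h. Chr1:183110086-183118588 went from 60.1% to 20.2%, and chr22:22106680-22113489 from 83.6% to 45.8%. The control share lay below the 30 min share in all 10, and the 1 h share lay below the control share in 8. The 30 min list is part of both differences, so these are levels set side by side.

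Some longer domains were also covered less at 1 h, and those named here come from the 10 largest losses in bp. Such losses were the smaller group: of 196 domains of 50 to 100 kb, 107 were covered more and 10 less. The most bases left at chr10:33462072-33626573, 164.5 kb long, with 61.0 kb covered at 30 min and 35.2 kb at 1 h. Its parts went from 67.2%, 39.1%, 47.5%, 13.5% and 18.2% to 47.8%, 5.76%, 15.4%, 11.6% and 26.4%, so the upper end did not share in the loss. A pair of domains on chromosome 18 lay 38.8 kb apart. Chr18:55308413-55385221 went from 82 peaks and 33.0 kb to 24 peaks and 8.83 kb, and chr18:55424012-55474455 from 24.9 to 9.41 kb. In the former, a stretch in the lowest part kept a peak of 2638 bp at 1 h, and the next part went from 45.0% to 3.11%. Chr3:66420649-66483068 went from 21.0 to 6.55 kb, and chr12:1731808-1779632 from 19.0 to 6.58 kb. In the latter the lowest and the middle parts had 29.1% and 34.8% at 30 min and none at 1 h. Chr9:37935449-37976774 went from 30.5% to 6.03%, with 11.8% in control.

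**Figure D4:**
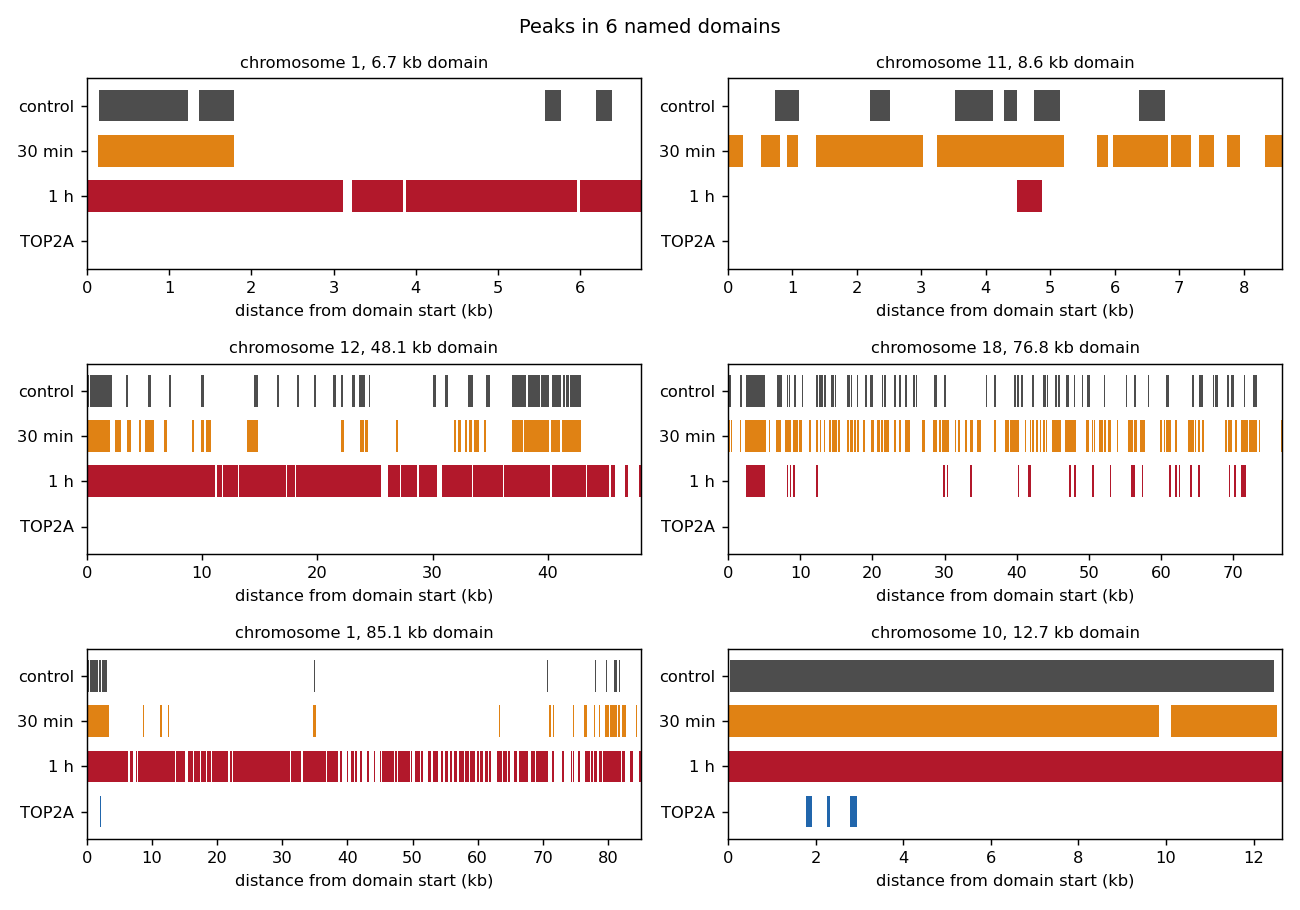
Peaks of control, 30 min, 1 h and TOP2A in 6 named domains, against the distance from the domain's lower end in kb; each bar is a peak. The left column shows domains covered more at 1 h. On the right, the upper 2 domains have lost most of their cover at 1 h and the lowest is covered almost throughout.

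Long domains were covered more at 1 h more often than short ones. The share covered more by at least 10 points was 38.0% (36.0 to 39.9) among 2382 domains of 5 to 10 kb, 45.1% (42.1 to 48.1) among 1034 of 20 to 50 kb and 54.6% (47.6 to 61.4) among 196 of 50 to 100 kb. Covered length in these classes was higher at 1 h by ratios of 1.21, 1.27 and 1.39. In the 47 domains of at least 100 kb the share covered more was 59.6% (45.3 to 72.4) and the ratio 1.26, so the ratio did not go on increasing with length. The share covered less was 8.19% (7.15 to 9.36), 4.16% (3.10 to 5.55) and 5.10% (2.79 to 9.14). Added peaks lengthen domains joined from both lists, and their part in this order was not tested.

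Averaged over the long domains covered more at 1 h, cover was added in all 5 parts. A mean over domains does not show how cover was spread within each one. The 1277 domains of at least 20 kb were turned so that the end with more control cover came first, and cut into 5 equal parts. In the 601 covered more at 1 h, mean cover at 30 min was 48.9% in the first part and 23.0% in the last, and at 1 h it was 66.7% and 43.7%. The differences from first to last part were 17.8, 22.5, 23.7, 21.7 and 20.7 points. In the 54 covered less at 1 h, mean cover in the first part was 54.9% at 30 min and 36.5% at 1 h, and in the last part 24.7% and 13.1%. The difference, 1 h minus 30 min, was -18.4 points in the first part and -11.6 points in the last. Both sets were picked by this difference over the whole domain, so its direction is given by choice. Turning by control cover also favours a fall from first to last part, and control itself went from 45.9% to 19.7% in the 601. In the 622 domains that changed by under 10 points, the differences were 2.02 to 4.75 points.

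**Figure D5:**
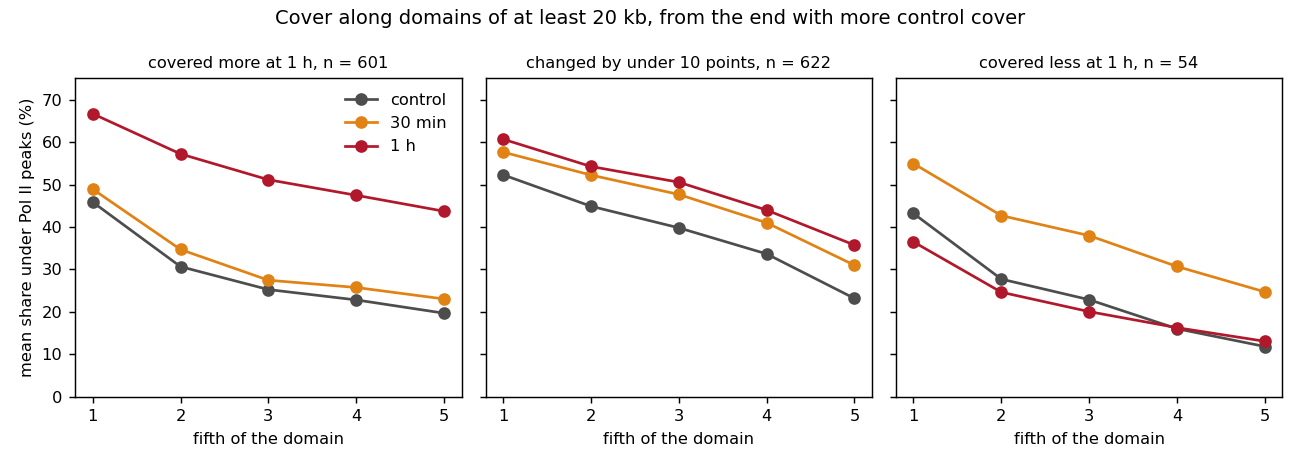
Mean share under Pol II peaks in percent in 5 equal parts of domains of at least 20 kb, from the end with more control cover, for control, 30 min and 1 h. In the left panel (601 domains) the 1 h line lies 17.8 to 23.7 points above the 30 min line, and in the right panel (54 domains) it lies 11.6 to 18.4 points below. The domains of these panels were picked by this difference.

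A small set of domains was nearly solid at both times. Chr10:17269645-17282299 had 96.8% of its length under Pol II at both times, with 98.1% in control, and held 3 TOP2A peaks. Chr6:34203442-34217531 had 96.3% in common, with 5 pieces at 30 min and 1 at 1 h, while 6 control peaks covered 88.6%. Chr6:32935235-32952949 had 96.1% in common, with a control share of 99.5%.

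Some Pol II at 1 h stood alone. A set of 3431 domains held no 30 min peak, and 2564 of them were single peaks. Together they had 1.33 Mb of cover, and 508 (14.8%) overlapped a control peak. Domains with no 1 h peak numbered 1346, of which 1123 were single peaks, with 0.4 Mb in all, and 357 (26.5%) overlapped a control peak.

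Read against control, most regions present at both times overlapped a control peak. A control peak overlapped 84.9% (84.4 to 85.4) of kept regions, 68.1% (67.3 to 68.9) of extended regions and 65.1% (63.8 to 66.3) of shrunk regions. The share was 15.3% (14.9 to 15.7) for regions at 1 h alone and 25.2% (24.4 to 25.9) for regions at 30 min alone. By width the order of extended and shrunk regions was the other way round: from 500 to under 1000 bp, control peaks overlapped 67.7% (66.5 to 69.0) of extended and 73.9% (72.0 to 75.8) of shrunk regions. The order of the times held at like width: among peaks without a partner from 300 to under 500 bp, 39.9% (37.8 to 42.0) at 30 min and 19.6% (18.7 to 20.5) at 1 h overlapped control. Among regions of that width present at both times, the shares were 61.8% of kept, 47.4% of extended and 51.2% of shrunk regions. Regions at 1 time only were narrower, so the shares over all widths do not compare like with like. Domains covered more at 1 h had a median control share of 23.0%, beside 27.2% at 30 min and 48.6% at 1 h. In domains covered less, the medians were 24.0% for control, 43.6% for 30 min and 25.2% for 1 h. Over all 5292 domains the control median was 25.1%, close to that of either set. The sets were picked by the difference between the times, so their 30 min and 1 h medians differ by choice. The share of domains covered more went down from 46.0% where control cover was under 10% to 22.8% where it was at least 75%, and in the latter the median at 30 min was already 84.1%.

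TOP2A peaks of untreated cells lay on few regions seen at 1 time only. They lay on 908 kept regions (4.09%, 3.84 to 4.36), 194 extended (1.37%, 1.19 to 1.58) and 42 shrunk (0.765%, 0.567 to 1.03). Regions at 1 h alone held one in 19 cases (0.0566%, 0.0362 to 0.0883) and regions at 30 min alone in 19 (0.137%, 0.0879 to 0.214). Their median widths were 228 and 204 bp. Among all peaks from 200 to under 300 bp, with or without a partner, TOP2A lay on 0.104% at 1 h and 0.182% at 30 min. Width also moved with the shares of the other classes: among regions of 1 to 2 kb they were 5.52% (5.00 to 6.08) of kept, 2.23% (1.77 to 2.81) of extended and 1.24% (0.654 to 2.34) of shrunk regions. From 500 to under 1000 bp the order of the latter was reversed, with 0.344% (0.218 to 0.543) of extended and 0.881% (0.558 to 1.39) of shrunk regions. Among regions of 5 kb or more the shares were 12.2% (10.3 to 14.4) of kept and 18.4% (13.1 to 25.3) of extended regions, and these intervals overlap.

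Domains with TOP2A were covered less at 1 h in few cases. Of 499 such domains, 12 (2.4%, 1.38 to 4.16) were covered less by at least 10 points, against 316 of 4793 without TOP2A (6.59%, 5.92 to 7.33). The shares covered more were 44.7% (40.4 to 49.1) and 40.5% (39.1 to 41.9), with intervals that overlap. Domains with TOP2A were longer, with a median of 18.8 kb against 10.6 kb, and had more cover at 30 min, 43.8% against 31.4%. Within length classes the intervals for domains covered less overlapped, which is not a test of a difference. The share covered less was lower with TOP2A in the 4 classes under 100 kb. Of 5 to 10 kb domains, 5.11% (2.50 to 10.2) with TOP2A and 8.37% (7.30 to 9.59) without were covered less. At 10 to 20 kb the values were 1.55% (0.426 to 5.48) and 5.12% (4.12 to 6.35). They were 0.676% (0.119 to 3.73) and 4.74% (3.53 to 6.35) at 20 to 50 kb, and 1.64% and 6.67% at 50 to 100 kb. Of domains of at least 100 kb, 1 of 24 with TOP2A and 0 of 23 without were covered less. For domains covered more, the intervals with and without TOP2A overlapped in the 4 length classes under 100 kb, at 40.1% and 37.8% from 5 to 10 kb, 46.5% and 39.8% from 10 to 20 kb, 45.3% and 45.0% from 20 to 50 kb, and 52.5% and 55.6% from 50 to 100 kb. Among domains of at least 100 kb, 9 of 24 with TOP2A (37.5%, 21.2 to 57.3) and 19 of 23 without (82.6%, 62.9 to 93.0) were covered more, with a median cover at 30 min of 55.2% and 39.4%. The part of length and starting cover in these differences was not tested.

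Cover was higher at 1 h on all 23 chromosomes with Pol II peaks. The ratio ran from 1.18 on chromosomes 22 and 18 to 1.31 on chromosomes 3 and 21, with a median of 1.25. Domains covered more by at least 10 points made up 34.4% on chromosome 4 and 47.8% on chromosome 16. Those covered less made up 4.02% on chromosome 6 and 12.1% on chromosome 21, where only 58 domains were compared.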

How the data were processed

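RPE-1 chromatin was crosslinked with formaldehyde and precipitated with an RPB1 antibody, per the labels. The submitters' processing notes name Bowtie 1.2.0, MACS2, deepTools 2.4.1 and the build hg19. How the authors called peaks (the threshold, the background library, the pooling of libraries) is, in the sources used here, not given. Each deposited file lists only where a peak starts and ends, in bp, without height or score. Starts were taken to be 0-based and ends exclusive, as in BED files.

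As deposited, the lists hold 85990 peaks at 30 min and 81816 at 1 h. The smallest gap between deposited peaks was 1 bp at 30 min and 38 bp at 1 h, and the narrowest peak had 150 and 159 bp. The limits on joining and width were thus those of the 1 h list. Joining removed 9731 peaks at 30 min and the smallest width 8248, while neither removed any at 1 h. Overlap means at least 1 bp. Domains, classes and lists were chosen with earlier results of these data known. The text names domains of at least 5 kb from the 10 largest differences in share and in bp per direction, the 5 widest peaks per time, among all and among those without a partner, the 5 peaks over the most peaks of the other list, and the 5 domains of at least 10 kb with the most bases in common. The control and TOP2A lists did not enter the main calls. Both served as readouts, and the control list also gave an alternative set of domains and the orientation of long domains. The 3 IgG libraries were not analysed here. On simulated data the 4 interval functions matched bedtools 2.31.1, and all 5 planted classes were recovered in 1000 simulated regions. Scripts ran under Python 3.11.15 (pandas 2.3.3, numpy 2.4.6, matplotlib 3.10.9, scipy 1.17.1). Alternatives changed the limits on peaks, the overlap, the gap joined into domains and the change that counts.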

Additional observations from a re-analysis of the deposited data

How the results depend on the processing

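Depth is unknown and each time has 1 list, so no library could be left out. No paired analysis was possible because the libraries that share replicate numbers are pooled into 1 list per time. In every alternative run, total cover was higher at 1 h, 1 h peaks lacked a partner more often than 30 min peaks, and more domains were covered more than less at 1 h. With lists as deposited, peaks without a partner made up 23.1% at 30 min and 38.2% at 1 h, the cover ratio was 1.22, and 13140 peaks at 1 h ran across several at 30 min. With peaks of at least 300 bp these were 13.9%, 35.4%, 1.26 and 4283, while 2760 peaks at 30 min ran across several at 1 h, and 7680 regions were extended and 2650 shrunk. With peaks up to 1 kb apart joined they were 16.5%, 32.0%, 1.19 and 1794, with 919 in the other direction, 7481 regions extended, 3473 shrunk and 777 domains covered less. Shares without a partner were 26.5% and 50.7% where the overlap had to reach 50% of the peak, 7.92% and 21.7% where a peak within 1 kb counted, and 17.5% and 38.8% for peaks of at least 200 bp. With a change of 20 points, 837 domains were covered more and 85 less. With domains joined across 10 kb, 212 were covered less. Domains from the 30 min list gave 1151 covered more, those from the control list 1206, and those from the 1 h list 158 covered less. With a change of 1.5-fold, 8825 regions were extended and 3039 shrunk. The alternatives on domains from single lists, 200 bp, 1.5-fold, and all those for extended and shrunk regions were chosen after seeing the data. All 38 named domains with a difference kept its direction and at least 10 points with lists as deposited, at 300 bp and with peaks within 1 kb joined.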

Other observations

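Among regions with 1 peak at each time, the longest outward steps were chosen after their values were seen. At chr5:139056146-139062571 a peak of 241 bp at 30 min lay inside one of 6426 bp at 1 h, which reached 4545 bp further down and 1640 bp further up, and control peaks covered 53.5% of that stretch. At chr5:136824763-136829585 a peak of 481 bp at 30 min lay inside one of 4823 bp at 1 h, with no control cover. At chr3:156433404-156436529 a peak of 531 bp lay inside one of 3126 bp that reached 2522 bp further up and only 73 bp further down.

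The domains seen at 1 time only with the most cover were also picked after seeing their values. At 1 h alone, chr1:206822621-206833034 held 8 peaks over 5416 bp, and chr15:68665647-68685081 held 13 peaks over 4830 bp and no control peak. The latter lies beside chr15:68694892-68724865, which had one of the 10 largest differences towards 1 h. At 30 min alone, chr13:109856096-109866472 held 10 peaks over 3208 bp, with 4 control peaks, and chr13:51548799-51551925 held 6 peaks over 1920 bp and no control peak.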
